A study of Ascaris suum with 12 samples.

Results

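The 4 loci described here lie in the genome of the pig roundworm Ascaris suum, and their RNA was followed across the male and female germline. They are AgB01_g790, annotated as a dyslexia-associated protein; AgR035X_g089, annotated as ribosomal protein S6 kinase 2 alpha and, at one end, as serine racemase; AgR002_g166, annotated as the double-stranded RNA-binding protein Staufen; and AgE05_g022, a C2H2 zinc finger protein. They were chosen from the measured values themselves, because their RNA was high in post-meiotic tissue and spermatids and low in the seminal vesicle. Every annotated transcript of the 4 loci was included, which gave 39 of 61820 transcripts and 4 of 18025 genes. The levels that served for this choice are given as a description.

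The study used RNA sequencing to follow gene expression in a nematode that removes part of its genome from somatic cells. Male germline was divided into the mitotic region, spermatogenesis, the post-meiotic region, the seminal vesicle and spermatids, and female germline into the mitotic region, both parts of pachytene (early and late), diplotene and oocyte. All 10 samples carry the strain name North American wildtype, were dissected from untreated adult worms out of pig intestines, and are whole pieces of tissue; the number of worms in each and their age are not stated. With 1 library per region, the differences carry no replicate check, no error and no p-value.

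As background, nematode sperm crawl on a cytoskeleton of major sperm protein. In Caenorhabditis elegans most transcription stops by the end of male meiosis, and the mature sperm carry almost no ribosomes, so late male germ cells depend largely on RNA and protein made earlier. Staufen binds double-stranded RNA and, in Drosophila, localises messenger RNAs in the oocyte. Ribosomal S6 kinases are serine/threonine protein kinases that act downstream of growth-factor signals in mammals, serine racemase converts L-serine to D-serine, and C2H2 zinc fingers are small folds that often bind DNA. The name of the dyslexia-associated protein gives no molecular role.

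The unit is RPKM, a read count scaled by transcript length in kilobases and by the mapped reads of the library, so levels can be set side by side between transcripts. Isoforms of one locus overlap and share reads, and their separate values are estimates from the same reads. Multiplying RPKM by the length in kilobases removes the length correction. If no read were counted for more than 1 transcript, the unit would set a fixed ceiling on the library sum of this quantity. Over all transcripts the sum was 3080840 (oocyte) to 4461270 (post-meiotic region), above that ceiling in every library. Why was not tested. Shares of a locus by RPKM times length are therefore shares of the listed values and not of reads. Over the highest transcript of each gene the sum was 1727222 (RPKM times kb) for post-meiotic tissue and 1589120 for spermatids, against 995553 to 1065577 in the other 8 libraries. The sums of post-meiotic tissue and spermatids passed the ceiling clearly, and the others lay near it. Of these sums the 4 loci held 705151 (post-meiotic region) and 914645 (spermatids), which left 1022071 and 674474 for the other genes. Read depth could be worked out from the steps between low values in diplotene (9100000 reads) and oocyte (23200000 reads) and is unknown for the other 8 libraries.

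The libraries themselves also differed in genes named for cell types and tissues. The sum of the male germ cell list (52 genes, mainly major sperm proteins, highest transcript each) was 25618.1 RPKM in the male mitotic region, 68390 in spermatogenesis, 56892.1 in the post-meiotic region, 762.1 in the seminal vesicle and 5640.9 in spermatids, and 131.1 to 212.3 in the female libraries. Cuticle genes (195 genes, 451 transcripts) summed to 25975.9 RPKM in the seminal vesicle and 19684.1 in spermatids, against 450.5 to 2089.7 in the other 8 libraries. Most of both sums came from the collagens AgB01_g561_t01 (14536.2 and 7955.1 RPKM) and AgB01_g560_t01 (11101.1 and 6063.5). In the seminal vesicle and spermatids 103 and 84 of these genes were at 0, against 49 to 85 in the other 8 libraries. Transcripts named for the ribosomal RNA locus (3 genes) summed to 48115.1 RPKM in the post-meiotic region, 132715 in the seminal vesicle and 8501.9 in spermatids, against 1488.5 to 6320.4 in the other libraries. Oocyte and eggshell genes (30 genes) summed to 146.1 to 1805.4 RPKM in the male libraries and 10471.7 to 44863.2 in the female ones. Muscle genes summed to 89.7 to 397.1 RPKM in the male libraries and intestine and yolk genes to 0.1 to 21.7, with 7 to 12 of 29 muscle genes and 4 to 7 of 8 intestine and yolk genes at 0. In the female libraries muscle genes summed to 90.2 to 97.9 RPKM from the mitotic region to late pachytene. They rose to 1079.9 in diplotene and 1082.4 in oocyte. Female sums of intestine and yolk genes were 2 to 17.1 RPKM. The part of these differences in the values of the 4 loci was not tested. In bulk tissue, fewer cells of a type and less RNA per cell cannot be told apart.

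In each locus 1 transcript led, and the 4 leaders had the same outline along the male germline. The level was moderate in the mitotic region and spermatogenesis, high in the post-meiotic region, lowest in the seminal vesicle and highest in spermatids. AgB01_g790_t02 was listed at 2713.4 RPKM in the mitotic region, 3935.5 in spermatogenesis, 30822.3 in the post-meiotic region, 572.8 in the seminal vesicle and 39946.6 in spermatids. It ranked first of all 61820 transcripts in both spermatids and the post-meiotic region, and stood at rank 36 in spermatogenesis and 262 in the seminal vesicle. The kinase transcript AgR035X_g089_t08 had 2144.3, 2736.8, 12566.1, 0 and 15939.9 RPKM in the same 5 regions and held rank 3 in spermatids. The Staufen transcript AgR002_g166_t07 had 558.6, 685.5, 5037.5, 105.1 and 6705.1 RPKM. The zinc finger transcript AgE05_g022_t01, the only one of its locus and the only eliminated gene among the 4, had 123.8, 181.3, 1831.1, 22.8 and 2457.6 RPKM. Across these levels AgB01_g790_t02 was the highest of the 4 in every male region, and the order of the 4 was the same in every male region but the seminal vesicle, where the kinase transcript was listed at 0.

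**Figure D1:**
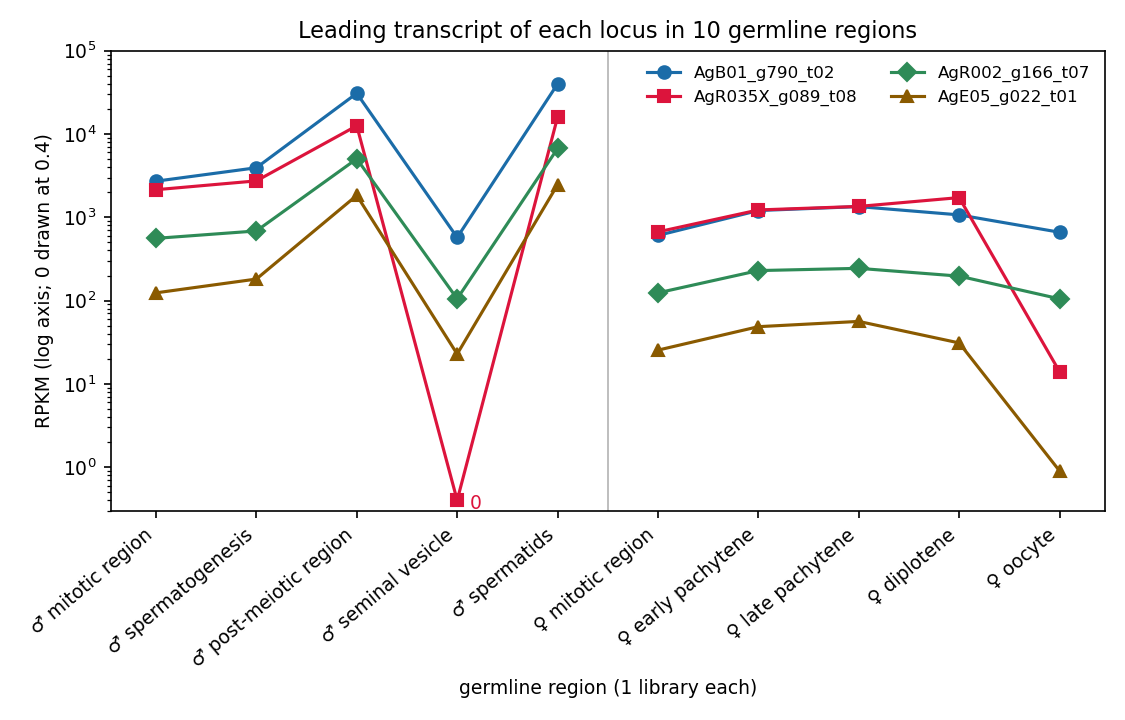
RPKM (log axis, 0 drawn at 0.4) of the leading transcript of each locus in the 10 germline regions, 1 point per library, males at the left and females at the right. All 4 lines peak in spermatids, with AgB01_g790_t02 at 39946.6 RPKM, and dip in the seminal vesicle, where the point of AgR035X_g089_t08 is at 0.

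Spermatids exceeded the post-meiotic region by similar small amounts in the 4 leaders. The ratio of spermatids to the post-meiotic region was 1.30 for AgB01_g790_t02, 1.27 for AgR035X_g089_t08, 1.33 for AgR002_g166_t07 and 1.34 for AgE05_g022_t01. The post-meiotic region exceeded spermatogenesis 7.83-fold, 4.59-fold, 7.35-fold and 10.1-fold in the same order of transcripts. Against the seminal vesicle, spermatids were 69.7-fold higher for AgB01_g790_t02, 63.8-fold for AgR002_g166_t07 and 108-fold for AgE05_g022_t01, and no ratio can be given for the kinase transcript listed at 0. When libraries were rescaled to the same sum without the 4 loci, these ratios became 123, 113 and 190. Rescaling by median ratios over transcripts present in every library divided the 4 ratios of the post-meiotic region to spermatogenesis by 2.01. Under it the ratios of spermatids to the post-meiotic region became 1.57, 1.54, 1.62 and 1.63, in the order of transcripts above. They became 1.84, 1.80, 1.89 and 1.91 after rescaling to the same sum without the 4 loci.

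That 0 needs a remark on the library. The seminal vesicle column holds many genes in which a single transcript is at exactly 0 while the gene's other transcripts are not: 1160 of 3699 genes with 3 or more transcripts and a median of 1 RPKM or more (31.4%), against 1.18% to 5.40% in the other 9 libraries. Of these transcripts 819 reached 10 RPKM or more in another library. AgR035X_g089_t08 was one of them, as were the minor transcripts AgB01_g790_t06 and AgR002_g166_t10. The other kinase transcripts AgR035X_g089_t06 and AgR035X_g089_t07 were listed at 33.2 and 41.2 RPKM in the same library, so an exact 0 is given here as a listed value.

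Of the 39 transcripts, 28 reached 10 RPKM in some library, 18 reached 100 and 10 reached 1000. By locus, 8 of 11 transcripts of AgB01_g790, 7 of 12 of AgR035X_g089, 12 of 15 of AgR002_g166 and the single transcript of AgE05_g022 reached 10 RPKM. Spermatids held the highest value for 22 of the 28, where 1.60% of all transcripts at 10 RPKM or more (526) had theirs; spermatids served in choosing the loci, so nothing is read from this count. The remaining 6 had it in the male mitotic region (1), the female mitotic region (3), early pachytene (1) or diplotene (1).

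A transcript was called higher or lower when log2(RPKM + 1) differed by 2 or more, which is 4-fold, and the higher value was 10 RPKM or more. In the post-meiotic region against spermatogenesis 13 of the 39 were called higher and 0 lower, where 5.86% and 10.3% of all transcripts were. The 13 were 8 of AgB01_g790, 2 each of AgR035X_g089 and AgR002_g166, and AgE05_g022_t01. After rescaling the libraries by median ratios 7 were called, and AgB01_g790_t02, AgR035X_g089_t08 and AgR002_g166_t07 fell short of 4-fold, with log2 differences of 1.96, 1.19 and 1.87. The share of all transcripts called under that rescaling was not computed. In the seminal vesicle against the post-meiotic region 0 were called higher and 18 lower (1.59% and 6.57% of all transcripts), with 8, 3, 6 and 1 lower calls in AgB01_g790, AgR035X_g089, AgR002_g166 and AgE05_g022. In spermatids against the seminal vesicle 23 were called higher and 0 lower (2.74% and 0.354% of all), with 8, 3, 11 and 1 higher calls. The rule that chose the loci used these libraries, and nothing is read from these 3 counts. Higher in the post-meiotic region than in spermatogenesis and in spermatids than in the seminal vesicle together were 12 of the 39, where 0.205% of all transcripts (127) were; these 12 were the same kind of selected value.

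**Figure D2:**
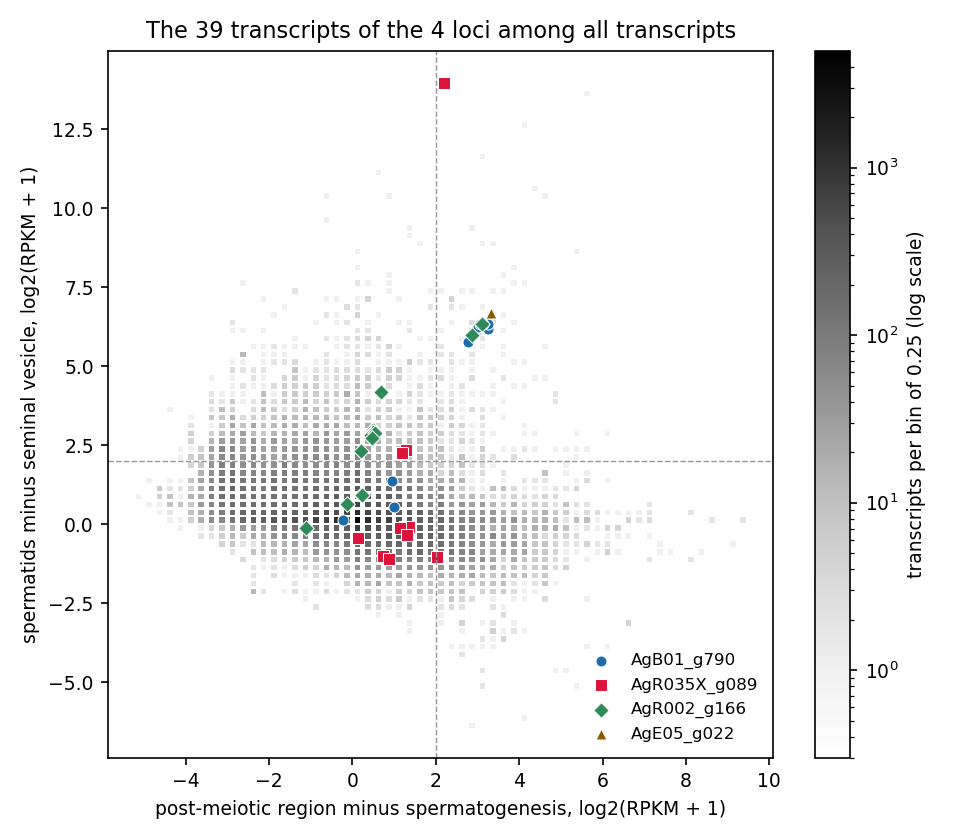
Difference of log2(RPKM + 1) between the post-meiotic region and spermatogenesis (x axis) and between spermatids and the seminal vesicle (y axis) for the 39 transcripts of the 4 loci, over the density of all 61820 transcripts in grey bins of 0.25; dashed lines mark 4-fold. The 12 transcripts past both lines form a tight group, apart from AgR035X_g089_t08, whose y value of 13.96 comes from the 0 in the seminal vesicle, and the other 27 lie below at least 1 line.

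Between spermatids and the post-meiotic region 0 of 39 were called either way (1.45% of all transcripts higher, 4.53% lower); among members at 10 RPKM or more in either library the largest difference was that of the Staufen transcript AgR002_g166_t10, with 17.1 RPKM in spermatids and 7.9 before them in post-meiotic tissue. Below that level AgR035X_g089_t03, a serine racemase transcript, had 9.6 RPKM in spermatids and 3.1 in post-meiotic tissue. In spermatids against the male mitotic region 12 were called higher and 0 lower (2.3% and 14.4% of all), namely 8 of AgB01_g790, 1 of AgR035X_g089, 2 of AgR002_g166 and AgE05_g022_t01. The median difference of log2(RPKM + 1) in that comparison was 0.58 for the 39 and -0.90 for all transcripts. Rescaling by median ratios raised the ratio of spermatids to the male mitotic region 2.37-fold for each leader, to 34.8 for AgB01_g790_t02, where it was 14.7 as deposited. The mitotic region was not named in the choice of the loci, but spermatids were.

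The AgB01_g790 locus lies at AgB01:12579836-12619526 on the plus strand and has 11 transcripts. The ends of its transcripts separated high from low values. The 8 transcripts that reach the last base at 12619526 were at 455.5 to 39946.6 RPKM in spermatids. The 3 that end inside the locus were near 0 there: AgB01_g790_t04, a hypothetical protein at 12585097-12587881, had 0.2 RPKM, and AgB01_g790_t05 and AgB01_g790_t06, which share the start at 12589210 with the high transcripts but end at 12612840, had 1.5 and 1.6 RPKM. Those last 2 were highest in the female mitotic region, at 9.1 and 9.4 RPKM. The start did not separate them: both starts, at 12579836 and at 12589210, occurred among the 8 high transcripts.

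Within the 8 long transcripts the values fell into 3 steps when given as RPKM times length. In spermatids AgB01_g790_t01 was at 8428 and AgB01_g790_t07 at 8140 on this scale. AgB01_g790_t03 and AgB01_g790_t08 to AgB01_g790_t11 lay at 72493 to 79091, and AgB01_g790_t02 alone at 739092. The 3 that start at 12579836 have the same first base, last base, length of 18502 nt and 21 exons, and yet AgB01_g790_t02 was listed 87.7-fold above AgB01_g790_t01, with AgB01_g790_t03 between them at 4274.7 RPKM. AgB01_g790_t03 had 366.3, 475.1, 3237, 78 and 4274.7 RPKM in the male regions and 87, 164, 177.2, 154.4 and 68.2 in the female regions. The table gives no exon coordinates, so what distinguishes these 3 cannot be located.

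The shorter transcripts AgB01_g790_t08 to AgB01_g790_t11, which share 1 span, a length of 9143 nt and 21 exons, were nearly alike. In spermatids they had 8415.8, 8360.3, 8291.4 and 7928.8 RPKM. Through the 10 libraries AgB01_g790_t08 had 563.4, 793.8, 6336.8, 113.5 and 8415.8 RPKM from the male mitotic region to spermatids and 126.1, 239.5, 264.4, 189 and 4.4 from the female mitotic region to oocyte. AgB01_g790_t09 to AgB01_g790_t11 followed it, at 6068.1 to 6298.3 RPKM in the post-meiotic region, 96.8 to 109.3 in the seminal vesicle and 2.4 to 4.3 in oocyte. AgB01_g790_t07, the transcript of this locus that the table marks as best expressed, had 46.4, 71.7, 695.4, 10.4 and 910.2 RPKM in the male regions and 16.1, 22.9, 25.8, 15.2 and 1 in the female regions. It kept the outline at a level far under that of its neighbours.

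The proportions among the most abundant transcripts of AgB01_g790 varied little in the 9 libraries other than oocyte. AgB01_g790_t02 held 64.0% to 67.8% of the locus by RPKM times length in 9 libraries and 89.6% in oocyte. AgB01_g790_t08 stood at 17.7% to 21.1% of the RPKM of AgB01_g790_t02 in those 9 libraries and at 0.67% in oocyte. AgB01_g790_t03 stayed at 10.3% to 14.4% in all 10. The weaker AgB01_g790_t01 and AgB01_g790_t07 varied more, at 0.73% to 1.39% and 1.42% to 2.66% in the 9. In oocyte the transcripts starting at 12579836 were at 661.4 (AgB01_g790_t02), 68.2 (AgB01_g790_t03) and 0.6 RPKM (AgB01_g790_t01), and those starting at 12589210 all at 4.4 RPKM or less. Of the 11 transcripts 10 carry the table's mark for the spliced leader, the short RNA that nematodes join to the front of many messages, and 4 the mark for an unspliced 5′ end; the 3 longest carry both.

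**Figure D3:**
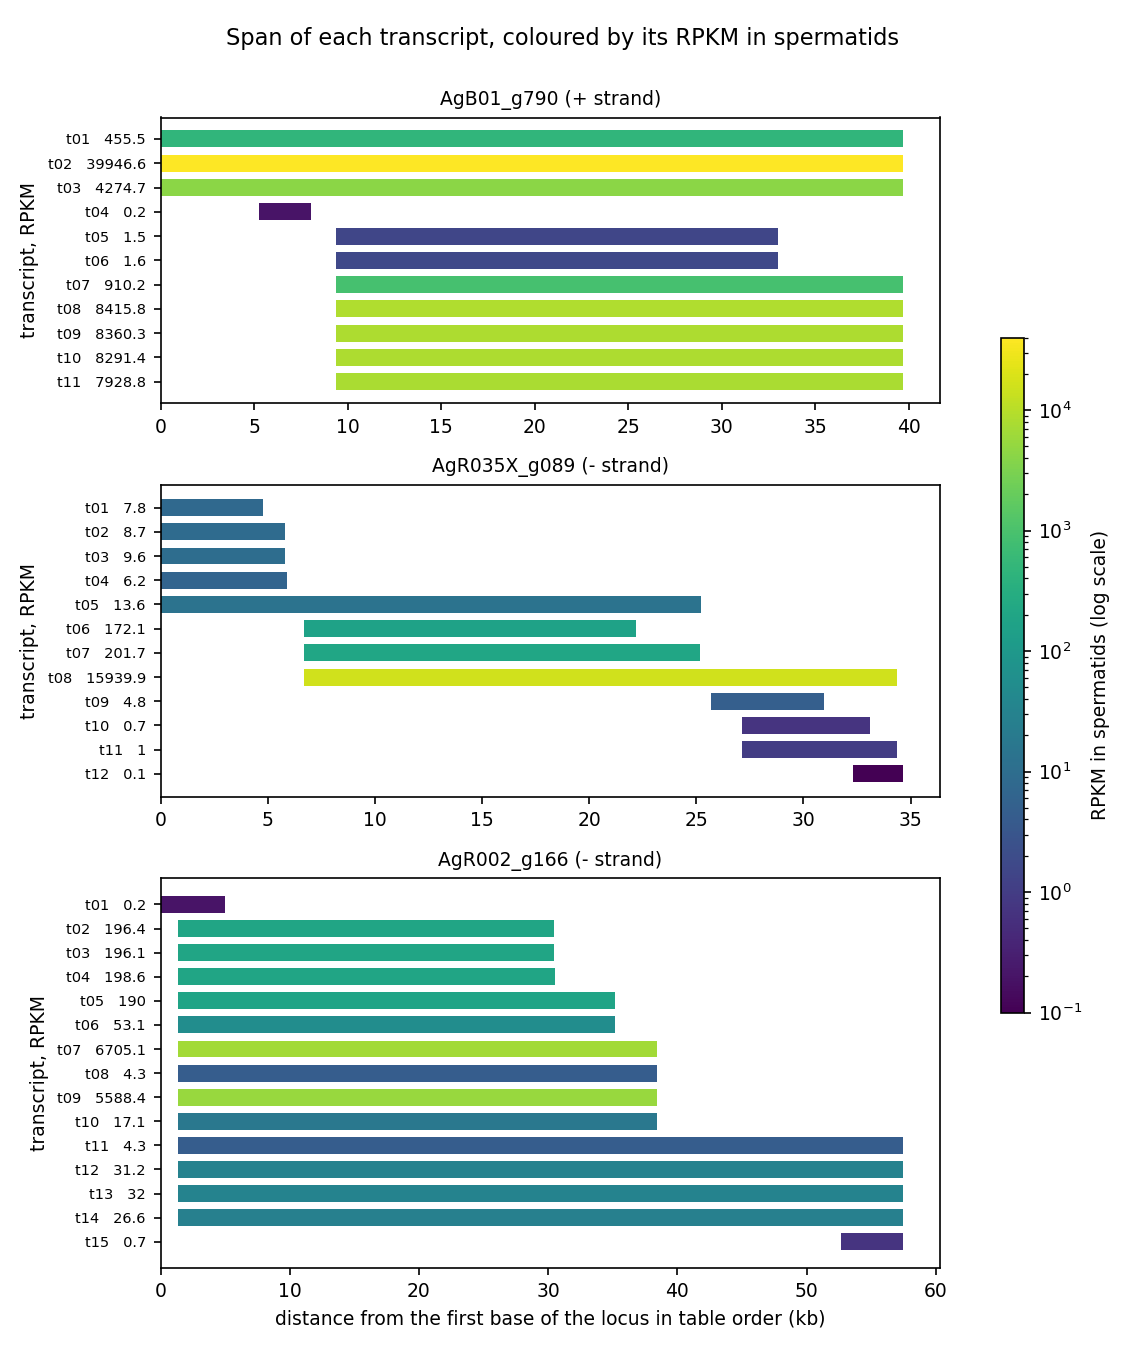
Span of each annotated transcript of the 3 loci with several transcripts, in kb from the lowest coordinate of the locus, coloured by RPKM in spermatids (log scale) with the value written beside the name. In AgB01_g790 the 8 bars that reach the right end are at 455.5 RPKM or more, in AgR035X_g089 1 bar stands at 15939.9, and in AgR002_g166 bars of the same span range from 4.3 to 6705.1.

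The AgR035X_g089 locus lies at AgR035X:1633186-1667822 on the minus strand, so its 5′ end is at the higher coordinate. Among its 12 transcripts the signal was carried by AgR035X_g089_t08 (1639883-1667557, 5202 nt, 18 exons), which held 97.6% of the locus by RPKM times length in spermatids, and 97.3% of it in post-meiotic tissue. Its level in the female regions was 668.2, 1225.7, 1351, 1724.3 and 14 RPKM from the mitotic region to oocyte. AgR035X_g089_t07 (1639883-1658354), the transcript marked as best expressed, shares its 3′ end with AgR035X_g089_t08 but starts inside it. It had 85.9, 81.1, 186.7, 41.2 and 201.7 RPKM in the male regions and 79.1, 93.6, 97.1, 78 and 7.6 in the female regions. AgR035X_g089_t06 (1639883-1655364) followed it with 65.7, 63.7, 155.8, 33.2 and 172.1 RPKM in the male regions and 65, 74.4, 78.4, 63.4 and 6.2 in the female regions. Both were called lower in the seminal vesicle than in the post-meiotic region and higher in spermatids than in the seminal vesicle, but not in the post-meiotic region against spermatogenesis, where AgR035X_g089_t07 differed 2.30-fold.

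The serine racemase end of this locus did not carry the pattern. The transcripts AgR035X_g089_t01 to AgR035X_g089_t04, which end at or before 1639091 and share no span with AgR035X_g089_t08, were at 6.2 to 9.6 RPKM in spermatids, 6.8 to 10.2 in the seminal vesicle and 8.1 to 12.1 in the female mitotic region. AgR035X_g089_t05, which runs across both parts (1633186-1658426, 24 exons), had 18.8, 2.4, 13, 29.1 and 13.6 RPKM in the male regions and 78.4, 71.3, 71.4, 19.9 and 6.2 in the female regions. Its seminal vesicle value was above its post-meiotic and spermatid values, the opposite of the leading transcript, although it was called higher in the post-meiotic region than in spermatogenesis.

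The upstream end did not carry it alone either. The hypothetical transcripts AgR035X_g089_t09 to AgR035X_g089_t12 (1658850-1667822) lie under the first part of AgR035X_g089_t08, and AgR035X_g089_t11 shares its first base at 1667557. They had 0.1 to 4.8 RPKM in spermatids. The highest of them, AgR035X_g089_t09, had 3.8, 0.3, 2.2, 6.3 and 4.8 RPKM in the male regions and 8.1, 9.2, 8, 13.1 and 11.7 in the female regions, and was highest in diplotene. In this locus the high value therefore belonged to the 1 transcript that joins the upstream end to the kinase end. How reads were divided between it and the transcripts that share its bases is an estimate of the authors' software.

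The AgR002_g166 locus lies at AgR002:2915338-2972787 on the minus strand, with 15 transcripts, 13 of which carry the spliced leader mark. Among these 15, AgR002_g166_t07 and AgR002_g166_t09 were the 2 above 1000 RPKM. AgR002_g166_t07 (2916658-2953741, 11716 nt, 23 exons) had 123.8, 229.2, 243.8, 196.6 and 104.9 RPKM in the female regions, beside the male values above. AgR002_g166_t09 begins 9 bases further upstream (2916658-2953750, 11752 nt, 23 exons) and had 350.7, 483.1, 4196.3, 68 and 5588.4 RPKM in the male regions and 79.7, 147, 162.5, 108.7 and 0.6 in the female regions. The 2 were close in the male regions and apart in oocyte, where one was at 104.9 RPKM and the other at 0.6.

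Each of these had a partner with the same span, length and exon number at a low level. AgR002_g166_t08, which matches AgR002_g166_t07 in all 3 and is marked as best expressed, had 8.8, 3.1, 3.7, 1.8 and 4.3 RPKM in the male regions and 8.9, 5.3, 5.1, 2.1 and 0.3 in the female regions; AgR002_g166_t07 was 1559-fold above it in spermatids. AgR002_g166_t10, which matches AgR002_g166_t09, had 11.8, 4.5, 7.9, 0 and 17.1 RPKM in the male regions, and AgR002_g166_t09 was 327-fold above it in spermatids. Without exon coordinates the difference within each pair cannot be located.

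The shorter Staufen transcripts shared the seminal vesicle dip without the post-meiotic step. AgR002_g166_t02 to AgR002_g166_t05, which start between 2945787 and 2950549, were at 141 to 146.2 RPKM in the male mitotic region, 24.1 to 24.8 in the seminal vesicle and 190 to 198.6 in spermatids. AgR002_g166_t02, for example, had 134.5 RPKM in the post-meiotic region and 96.6 in spermatogenesis (1.39-fold), against 7.35-fold for AgR002_g166_t07. AgR002_g166_t06 had 55.3, 35.5, 41.2, 9.9 and 53.1 RPKM in the male regions. The longest transcripts, AgR002_g166_t11 to AgR002_g166_t14, which reach 2972774, were at 4.3 to 32 RPKM in spermatids. The 2 hypothetical transcripts at the ends of the locus were low in spermatids, with 0.2 RPKM for AgR002_g166_t01 and 0.7 for AgR002_g166_t15. AgR002_g166_t15 (2967971-2972787, 537 nt), which does not overlap the leading transcript, was a female transcript, with 18.2 RPKM in early pachytene and 16.5 in oocyte.

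The 3′ end of AgR002_g166 overlaps a gene on the opposite strand, AgR002_g165, annotated as a human immunodeficiency virus type I enhancer-binding protein 2 homologue, a family of zinc finger transcription factors in vertebrates. Its transcripts that run into the Staufen locus and stop at 2927138 included the 2 high ones. AgR002_g165_t06 (2866319-2927138) had 64.4, 66.4, 464.3, 11.7 and 633.5 RPKM in the male regions and 22.8, 32.2, 33.8, 27.1 and 2.3 in the female regions, which was the outline of the 4 leaders. AgR002_g165_t11 (2903590-2927138) had 133.6, 96.5, 137.8, 24 and 205.5 RPKM in the male regions and 33.6, 54.7, 54.6, 67.5 and 1.4 in the female regions. The transcripts that stop at 2916445, before the main Staufen transcripts, were at 3.3 to 5.7 RPKM in spermatids. As RPKM times length, AgR002_g165_t11 was 1.03 to 1.18 times AgR002_g166_t02 in 9 libraries and 1.58 times in oocyte. Nothing says whether strand was used in counting, so reads of the 2 genes in the shared stretch cannot be told apart.

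AgE05_g022 lies at AgE05:367214-375218 on the minus strand, with 1 transcript of 5728 nt and 8 exons that carries neither 5′-end mark. The table lists it as eliminated, meaning that the gene is removed from somatic cells. It had the lowest level of the 4 leaders in every library except the seminal vesicle, where the kinase transcript was at 0, and in the female regions it had 25.4, 48.6, 56.2, 31 and 0.9 RPKM. As it has no second isoform, no part of it can be set against another.

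Genes next to the 4 loci did not share these levels. The nearest neighbours were AgB01_g789 (Surfeit locus protein 4, 357 nt away) and AgB01_g791 (2626 nt away), AgR035X_g088 (239 nt) and AgR035X_g090 (536 nt), AgR002_g164 (54145 nt) and AgR002_g168 (3322 nt), and AgE05_g021 (1495 nt) and AgE05_g023 (748 nt). The highest transcript of each had 0 to 7.4 RPKM in spermatids. AgR002_g167, inside the Staufen locus, had at most 7.2 RPKM in any library. The exception was the overlapping AgR002_g165.

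Females expressed the leaders at lower levels, a comparison in which the female side played no part in choosing the loci. At its highest, AgB01_g790_t02 had 39946.6 RPKM in spermatids among the male regions and 1344.2 in late pachytene among the female ones, a ratio of 29.7. The ratio was 9.24 for AgR035X_g089_t08 (15939.9 in spermatids, 1724.3 in diplotene), 27.5 for AgR002_g166_t07 (6705.1 and 243.8 in late pachytene) and 43.7 for AgE05_g022_t01 (2457.6 and 56.2 in late pachytene). Over all 39 transcripts, 12 had their highest male value called higher than their highest female value and 1 called lower, where 12.3% and 6.27% of all transcripts were. Rescaling by median ratios moved the ratio to 45.1 for AgB01_g790_t02 and 90.5 for AgE05_g022_t01. The highest male value is the one that chose the loci, and the ratios describe selected transcripts. For the transcripts marked as best expressed the log2 difference was 1.05 in AgR035X_g089 and -0.015 in AgR002_g166.

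Along the female germline, in the values as deposited, the 4 leaders parted in the last 2 regions. From the mitotic region through early to late pachytene each leader rose at each step, as in AgB01_g790_t02 with 605.8, 1205.8 and 1344.2 RPKM. In diplotene AgR035X_g089_t08 stood at 1724.3 RPKM, above its 1351 in late pachytene, while the other 3 leaders were lower in diplotene than in late pachytene. The median-ratio factors on the log2 scale were 0.58 for late pachytene and -0.20 for diplotene. Rescaling by them puts AgB01_g790_t02 and AgR002_g166_t07 higher in diplotene than in late pachytene and leaves AgE05_g022_t01 lower. AgB01_g790_t02 had 1069.1 RPKM in diplotene and 661.4 in oocyte, and its highest and lowest female values differed 2.22-fold. AgR002_g166_t07 varied 2.32-fold over the female regions. AgE05_g022_t01 varied 62.4-fold and AgR035X_g089_t08 123-fold, each with its lowest value in oocyte.

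In spermatids against oocyte 23 of the 39 transcripts were called higher and 1, AgR002_g166_t15, lower (3.19% and 5.22% of all transcripts). The median difference of log2(RPKM + 1) was 3.97 for the 39 and -0.07 for all transcripts. Spermatids served in choosing the loci, so nothing is read from this count or this median. In oocyte 6 of the 39 were at 10 RPKM or more (AgB01_g790_t02, AgB01_g790_t03, AgR002_g166_t07, AgR002_g166_t15, AgR035X_g089_t08 and AgR035X_g089_t09), against 18 to 24 in each other library. Of all transcripts, 14.8% were at 10 or more in oocyte, so the 6 of 39 lie near the share of all transcripts there. In the other libraries 10.4% to 31.9% of all transcripts were, the lowest in the seminal vesicle, where 18 of the 39 were.

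Of the other leaders, AgR002_g166_t07 kept the steadiest proportion to AgB01_g790_t02. AgR002_g166_t07 was 15.9% to 20.6% of AgB01_g790_t02 in all 10 libraries, although AgB01_g790_t02 itself varied between 572.8 and 39946.6 RPKM. AgR002_g166_t09 was 10.2% to 13.99% of it in 9 libraries and 0.09% in oocyte, and AgE05_g022_t01 was 2.90% to 6.15% in 9 and 0.14% in oocyte. AgR035X_g089_t08 varied most, at 39.9% to 161% of AgB01_g790_t02 in 8 libraries, 2.12% in oocyte and 0 in the seminal vesicle. It was near the level of AgB01_g790_t02 in the first 3 female regions, above it in diplotene and below it in the male regions.

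**Figure D4:**
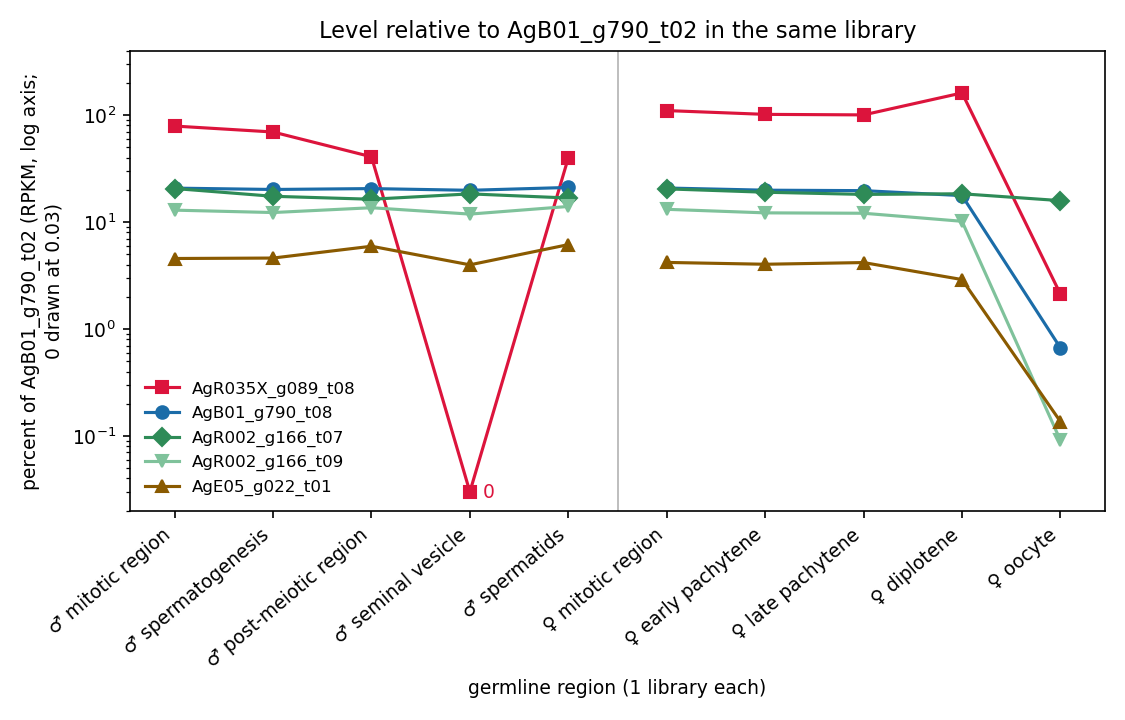
RPKM of 5 transcripts as a percentage of AgB01_g790_t02 in the same library (log axis, 0 drawn at 0.03), 1 point per germline region, males at the left and females at the right. AgR002_g166_t07 stays between 15.9% and 20.6% throughout, and 3 others drop in oocyte. AgR035X_g089_t08 varies from 39.9% to 161% outside oocyte and the seminal vesicle, where it falls lower.

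Correlations of log2(RPKM + 1) over the 10 libraries describe the same values, as points that share libraries and scaling. The loci were chosen for shared high values in the post-meiotic region and spermatids and low ones in the seminal vesicle. High values of r are therefore in part built in by that choice. Pearson's r was 0.999 between AgB01_g790_t02 and AgR002_g166_t07, 0.927 between AgB01_g790_t02 and AgE05_g022_t01, and 0.940 between AgR002_g166_t07 and AgE05_g022_t01. Without the oocyte the last 2 were both 0.998. With AgR035X_g089_t08, r was 0.714 for AgB01_g790_t02, 0.731 for AgR002_g166_t07 and 0.745 for AgE05_g022_t01, and without the seminal vesicle 0.776, 0.801 and 0.946.

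The transcripts outside the 4 loci whose outline was most like the mean of the 4 leaders were sought among 4742 transcripts of 1595 genes that reached 100 RPKM, 1 per gene, by Pearson's r of log2(RPKM + 1) over 10 libraries. The first was AgB34_g002_t01, a hypothetical protein of an eliminated gene (r = 0.973), with 112.7 RPKM in the post-meiotic region, 3.8 in the seminal vesicle and 221.3 in spermatids. AgR002_g165_t06, the transcript that overlaps the Staufen locus, came next (0.972). A facilitated glucose transporter, AgB04_g359_t03 (0.966), had 1321.8, 18.8 and 1633.1 RPKM in these regions, and AgB02_g042_t04 (0.962), named for the poly(A)-specific ribonuclease PARN, which shortens the tails of messenger RNAs, had 435.1, 6.6 and 560.3. The others were AgR050_g018_t03, a PH domain protein (0.961), AgR029_g121_t01, a decaprenyl-diphosphate synthase subunit of ubiquinone synthesis (0.958), AgR041_g049_t04, a homologue of glucose-induced degradation protein 8 (0.955), and AgB21_g034_t01, a hypothetical protein (0.954) with 3673.6 RPKM in spermatids. Over the 5 male libraries alone, 1 of these 8 genes was among the first 8.

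In several of these genes too, 1 isoform stood far above the rest in spermatids. AgB04_g359_t03 had 1633.1 RPKM where the next of its 3 transcripts had 0.1, AgB02_g042_t04 had 560.3 where the next of 9 had 1.3, and AgR029_g121_t01 had 582.7 where the next of 6 had 2.6. It was not so in AgR041_g049, where another of 19 transcripts was at 310.8 RPKM against 285.6, or in AgB34_g002, where the second transcript was at 1052.5 against 221.3.

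Taken locus by locus, AgB01_g790_t02 and AgR002_g166_t07 had the same nearest transcript, AgR029_g095_t05 of signal peptidase complex subunit 1 (r = 0.997 for both). The complex as a whole trims signal peptides from secreted proteins. Next for both was AgB02_g042_t04 (0.991 and 0.993). AgE05_g022_t01 was most like AgR002_g165_t06 (0.993), AgR050_g018_t03 (0.992) and AgB04_g359_t03 (0.990). For AgR035X_g089_t08 the nearest over the 10 libraries were AgR002_g270_t01 (0.893), AgB15X_g124_t03 of the ubiquitin ligase UBR-1 (0.880) and AgB05_g261_t13 (0.863). Each of the 3 was also listed at 0 in the seminal vesicle. Matches of this transcript without the seminal vesicle were not sought.

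Genes named like the 4 loci were counted from lists of annotation words. Outside the 4 loci no transcript was named for a dyslexia-associated protein, serine racemase or Staufen. Other S6 kinases comprised 23 transcripts of 4 genes, of which 0 were called higher and 3 lower in spermatids than in the male mitotic region. The 3 are 13.04% of the list, near the 14.4% of all transcripts called lower there. The highest of them, AgR005_g250_t03, a beta-1 kinase, had 33.8 RPKM in spermatids and 82 in the male mitotic region. None of the 23 was called in the post-meiotic region against spermatogenesis, and their median difference there was 1.09.

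C2H2 and other zinc finger proteins comprised 472 transcripts of 164 genes. In spermatids against the male mitotic region 1 was called higher (0.212%) and 50 lower (10.6%), where 2.3% and 14.4% of all transcripts were. In the post-meiotic region against spermatogenesis 12 were called higher (2.54%) and 20 lower (4.24%), where 5.86% and 10.3% of all were. Each of these 4 shares was under that of all transcripts. AgR008_g309_t01, a zinc finger protein among the highest of them, had 110.6 RPKM in spermatids and 114 in the male mitotic region. Genes of RNA localisation and translational control comprised 134 transcripts of 26 genes, of which 0 were called higher and 72 lower (53.7%, against 14.4% of all transcripts) in spermatids than in the male mitotic region, with a median difference of -2.24 where that of all transcripts was -0.90. In the post-meiotic region against spermatogenesis 13 were called higher (9.70%, against 5.86% of all) and 42 lower (31.3%, against 10.3% of all). Cytoplasmic polyadenylation element-binding protein 1 (AgR030_g078_t01), which controls the translation of stored messages, had 6.6 RPKM in spermatids and 197.9 in the male mitotic region. A Y-box factor, AgR009X_g097_t03, of a family of RNA-binding proteins, had 43.8 RPKM in spermatids and 18.8 in the male mitotic region. It had 70.3 RPKM in post-meiotic tissue and 2.2 in spermatogenesis.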

How the data were processed

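Frozen germline tissue was ground and its RNA taken up in Trizol, ribosomal RNA was depleted with a kit made for human, mouse and rat, and libraries were made with a TotalScript kit, per the labels' protocols. The deposited table gives the authors' RPKM for every transcript in each of the 10 regions, to 1 decimal. TopHat2 and Cufflinks are named in the submitters' processing notes, without versions. The genome build, the source of the annotation, and whether strand was used are not given in the sources at hand; coordinates, annotations, the 5′-end marks, the eliminated status and the mark of the best expressed transcript are as deposited. No column of values lacked a sample, and the 2 mixed-sample 5′-end libraries are not analysed here.

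Differences were computed as log2(RPKM + 1), with a pseudocount of 1, which understates changes of low transcripts. Calls needed 4-fold and 10 RPKM in the higher library, and percentages called are over all 61820 transcripts. A leading transcript is the one with the highest RPKM in any library. Named with values, or within a range, were the leading transcripts, up to 6 others per locus at 10 RPKM or more, the highest one that does not overlap the leader, neighbouring and overlapping genes, the 8 most similar transcripts (3 per locus) and up to 3 per family list. Lists matched annotation words: the families, RNA localisation, and markers of male germ cells, oocyte and eggshell, muscle, intestine and yolk, cuticle and the ribosomal RNA locus. The members, lists and rules were chosen with earlier results of these data known. Read depth was sought from the steps between values of transcripts under 260 nt, with a score of 0.5 needed. The rules were tested on simulated data. Alternatives were pseudocount 0.1, no minimum level, 2-fold, rescaling by median ratios, rescaling without the 4 loci, sums per locus and other sets of libraries. Leaving out transcripts at 0 in the seminal vesicle, using the marked transcript leaving out AgR035X_g089 from the similarity and rescaling the oocyte against female mitotic difference were added after seeing the data. Python 3.11.15, numpy 2.4.6, pandas 2.3.3 and matplotlib 3.10.9 were used.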

Additional observations from a re-analysis of the deposited data

Results flagged for a closer look

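In the values as deposited, the leaders of 3 loci were higher in spermatids than in the male mitotic region and lower in oocyte than in the female mitotic region; for 1 of the 3 the female direction turned when libraries were rescaled. The difference of log2(RPKM + 1) between spermatids and the male mitotic region was 2.89 for the kinase transcript AgR035X_g089_t08, and that between oocyte and the female mitotic region was -5.48. For the Staufen transcript AgR002_g166_t07 the values were 3.58 in males and -0.24 in females, and for the zinc finger transcript AgE05_g022_t01 4.30 in males and -3.80 in females. Each side is 1 library against 1, so the difference between the sexes was not tested. The male side rests on spermatids, whose values served in choosing the loci. The female value of AgR002_g166_t07 is small, at 104.9 RPKM in oocyte and 123.8 in the female mitotic region, and became 1.22 after rescaling by median ratios and 0.079 after rescaling to the same sum without the 4 loci. The other 2 stayed negative under both, at -5.17 to -4.04 for AgR035X_g089_t08 and -3.56 to -2.59 for AgE05_g022_t01. The fourth leader, AgB01_g790_t02, had 661.4 RPKM in oocyte and 605.8 in the female mitotic region and so had the same sign in both sexes. Its female difference, 0.126 as deposited, became 1.59 after rescaling by median ratios and 0.444 after rescaling to the same sum without the 4 loci.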

How the results depend on the processing

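Counts of called transcripts in the post-meiotic region against spermatogenesis dropped to 7 of 39 when libraries were rescaled by median ratios over 15277 transcripts, against 13 as deposited; there the log2 difference was 1.96 for AgB01_g790_t02, 1.19 for AgR035X_g089_t08 and 1.87 for AgR002_g166_t07, all under the 4-fold threshold. That rescaling moved libraries by -1.20 to 1.04 on the log2 scale. Summed per locus, 4 of 4 loci were called in the same direction as the transcripts in each comparison but spermatids against the post-meiotic region. With only the transcript marked as best expressed, 2 of 4 were called in the post-meiotic region against spermatogenesis and in spermatids against the male mitotic region, and 3 of 4 in the seminal vesicle against the post-meiotic region, in spermatids against the seminal vesicle and in spermatids against oocyte. With that mark the highest male minus highest female difference was 1.05 for AgR035X_g089 and -0.015 for AgR002_g166, where the sign changed. At 2-fold, 1 transcript was called higher in spermatids than in the post-meiotic region, against 0. With the 5 male libraries only, 1 of the 8 similar genes was still among the first 8. Leaving out transcripts at 0 in the seminal vesicle left 17 of 36 called lower there and 21 of 36 higher in spermatids. For AgR002_g166_t07 the difference between oocyte and the female mitotic region, -0.24 as deposited, was 1.22 under median ratios and 0.079 under the sum without the 4 loci. Under median ratios 12 transcripts were called lower in the seminal vesicle than in the post-meiotic region, against 18. At 2-fold, 2 were also called higher there and 1 lower in spermatids than in the seminal vesicle, against 0 each. Shares of all transcripts called were computed for the main setting only. Counts under the other settings therefore have no such share to be set against, and nothing is read from them about the loci. In all, 57 recomputed counts (within 1.5 times the main one), shares and sex differences and 99 single-transcript differences gave the same call. The 99 include differences at the 2-fold threshold, where a leader called at 4-fold is called by construction. Ratios of the leading transcripts moved by more than 1.5 times in some comparisons even where the call held, as given beside them. No paired analysis was possible because each region has 1 library and no test was made. Depth is unknown for 8 libraries, so counting error could not be given.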
